A study of Mus musculus with 2 samples.

Results

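The 10 genes described here encode the 4 Janus kinases (Jak1, Jak2, Jak3 and Tyk2), the transcription factors Stat3, Stat5a and Stat5b, the feedback inhibitors Socs2 and Cish, and the adaptor Sh2b3, also known as LNK. They were chosen by name for their place in one signalling pathway and not by their values, though with earlier results of these data known. They are 10 of the 42462 genes in the tables that could be matched to the GENCODE M21 mouse annotation. The study measured total RNA, after removal of ribosomal RNA, from mouse hematopoietic stem cells (HSC), with male adult donors of strain C57BL/6J, 5 to 6 weeks old. The only group has 2 biological replicates, each a ScriptSeq library of 100 ng RNA, so there is no second condition and no test between conditions. The labels tie both libraries to the same donor entry of the strain and name separate biosamples, and they leave unsaid how many mice lie behind each. They name no treatment, no genotype beyond the strain and no surface gate for the sort. The spread shown is that between these 2 samples, which may be technical.

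Many cytokine receptors have no enzyme activity of their own and keep Janus kinases bound to their inner ends. When a cytokine joins the receptor chains, the kinases phosphorylate each other, the receptor and the STAT proteins, which pair, enter the nucleus and switch on genes. Among the genes that STAT5 switches on are Cish and Socs2, whose proteins then dampen the same receptors. In blood stem cells a well known route runs from cytokine receptors through JAK2 to STAT5, and LNK holds that route in check.

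Replicate 1 had 27901074 expected counts and replicate 2 had 48490188, and 3 counts, the limit that a count of 0 allows, correspond to 0.108 and 0.0619 CPM, a count relative to the library total. Levels are given in TPM, which divides the counts by transcript length and scales them to a fixed total, with the lower and upper bounds deposited for each estimate. Those bounds and limits cover estimation and counting error only. Protein-coding genes held 16.3% of all TPM in replicate 1 and 20.3% in replicate 2, so 1 TPM on this scale is a higher bar than in a library of messenger RNA alone. Of 10 HSC markers 8 reached 1 TPM in both libraries, among them Kit and Procr. The other two, Slamf1 and Hoxb5, lay between 0.04 and 0.43 TPM. All 4 genes of multipotent progenitors and all 10 neutrophil genes reached 1 TPM as well. The HSC markers summed to 154 TPM in replicate 1 and 170 in replicate 2, with a median of 13.2 over the list. The multipotent progenitor genes were higher, with sums of 312 and 324 TPM and a median of 73.9. The neutrophil genes summed to 3145 TPM in replicate 1 and 1192 in replicate 2, the 5 monocyte and macrophage genes to 362 and 166, and the 8 erythroid genes to 20.0 and 93.7. Megakaryocyte genes (2 of 5 at 1 TPM) summed to 12.9 and 17.5, B cell genes (1 of 5) to 5.02 and 3.26 with Pax5 at 0 counts, and T and NK cell genes (1 of 6) to 3.14 and 3.13 with Cd8a at 0 counts. In such bulk RNA fewer cells of a type and less RNA per cell cannot be told apart, and the part of these other cells in the levels below was not tested.

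Of the 10 genes 8 were at 1 TPM or more in both libraries, where 44.0% of the 21474 protein-coding genes were. Socs2 and Cish, the feedback genes, fell below. The median of the 10 mean levels was 7.81 TPM, with 6.55 in replicate 1 and 9.08 in replicate 2. Over the 9443 detected protein-coding genes the median was 6.58 TPM, and over all protein-coding genes it was 0.545.

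**Figure D1:**
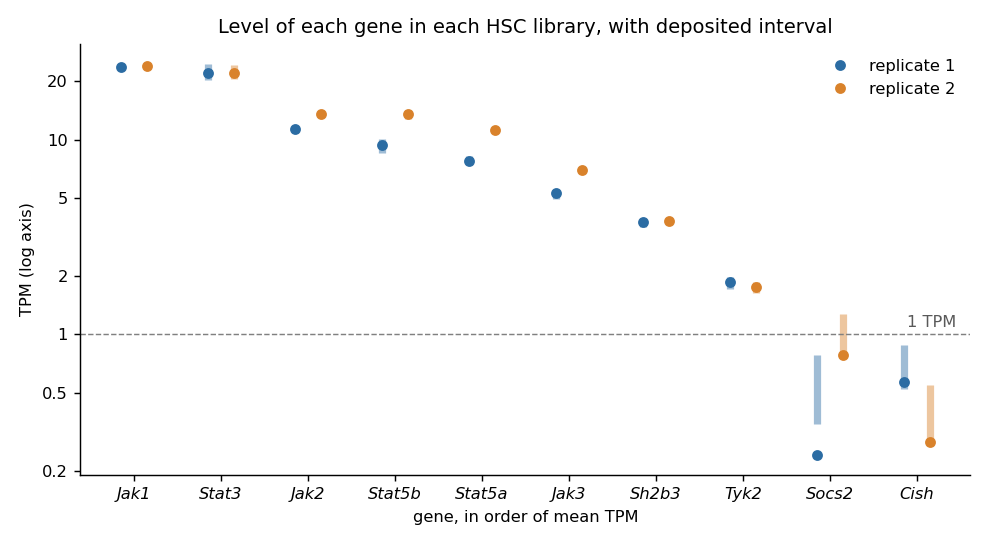
TPM of each of the 10 genes (log axis) in replicate 1 (blue) and replicate 2 (orange); points are the deposited TPM, thick lines the deposited lower to upper bound, and the dashed line marks 1 TPM. Jak1 and Stat3 lie highest near 22 to 24 TPM, and only Socs2 and Cish lie below the line, where the point of Socs2 in replicate 1 falls outside its own interval.

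Jak1, the kinase shared by receptors of the interferon, gp130 and common gamma chain families, was the most abundant of the 10. It measured 23.6 TPM in replicate 1 (bounds 22.8 to 24.1) and 23.7 in replicate 2 (23.0 to 24.5), from 8865 and 12364 counts. The libraries could not be told apart for Jak1 in TPM. The gene (ENSMUSG00000028530.10) lies on the minus strand at chr4:101152367-101265282 in GRCm38, the assembly also called mm10, in which all positions here are given. Its full-length coding transcript Jak1-201 held 90.5% and 83.4% of the gene's TPM, a share called the isoform percent. Noncoding processed transcripts of 504 to 2039 bases held the remainder.

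Jak2 serves the receptors for erythropoietin, IL-3 and GM-CSF, among others. It measured 11.4 TPM in replicate 1 (10.9 to 11.5) and 13.6 in replicate 2 (13.2 to 13.8), with replicate 2 higher and the intervals apart. Jak1 exceeded Jak2 in both libraries, by 0.92 ± 0.17 on the log2 scale (SD, n = 2; ratios use TPM + 0.1). Jak2 (ENSMUSG00000024789.8, plus strand, chr19:29251828-29313080) had 2 annotated transcripts, both coding, and Jak2-202 held 86.3% and 96.7% of its TPM. The other, Jak2-201, lacks an exon of 83 bases at chr19:29252437-29252519, and its own bounds ran from 0.0185 to 3.32 TPM in replicate 1.

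Jak3 pairs with the common gamma chain, Il2rg, and is best known from lymphocytes. It measured 5.3 TPM in replicate 1 (4.96 to 5.49) and 6.98 in replicate 2 (6.69 to 7.17), again with replicate 2 higher and the intervals apart. Jak2 exceeded Jak3 by 1.02 ± 0.10 on the log2 scale (SD, n = 2). The coding transcript Jak3-202 held 79.9% and 72.9% of its TPM, and the coding Jak3-201, with another first and last exon, held 12.2% and 16.8%. Jak3 (ENSMUSG00000031805.13, plus strand, chr8:71676296-71690575) shares 1362 bases of gene span with Insl3 on the same strand, which measured 1.45 and 1.26 TPM. The deposited posterior SD of the Jak3 count, the uncertainty from reads that could belong elsewhere, was 3.65 counts of 1613 and 4.33 of 3260.

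Tyk2, which works beside JAK1 or JAK2 at interferon and IL-12 family receptors, was the lowest of the kinases. It measured 1.86 TPM in replicate 1 (1.70 to 1.97) and 1.76 in replicate 2 (1.64 to 1.85), and these intervals overlapped. Jak3 exceeded Tyk2 by 1.70 ± 0.33 and Jak1 exceeded it by 3.64 ± 0.06 on the log2 scale (SD, n = 2), the latter a 13.1-fold ratio of the mean levels. The 4 kinases thus kept the order Jak1, Jak2, Jak3, Tyk2 in both libraries with no overlap of intervals. Tyk2 (ENSMUSG00000032175.10, minus strand, chr9:21104068-21131243) had 1 annotated transcript. The antisense gene 1700084C06Rik covers 24326 bases of its span and measured 0.33 TPM in replicate 1 and 0 in replicate 2.

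Stat3, the main effector of gp130 cytokines and of the G-CSF receptor, stood next to Jak1 in level. It measured 22.0 TPM in both replicates, with bounds of 20.1 to 24.4 in replicate 1 and 20.4 to 24.2 in replicate 2, from 4169 and 7424 counts. Its intervals overlapped those of Jak1 in both libraries. Stat3 (ENSMUSG00000004040.12, minus strand, chr11:100885098-100939540) was the gene whose TPM was spread over most transcripts: 11 of 14 had a value above 0 in replicate 1 and 8 in replicate 2. Stat3-213, a fragment of 396 bases annotated as a retained intron, took 31.4% and 27.0% of the gene's TPM from about 122 counts in each library. By counts, the 3 coding transcripts held 93.1% and 95.3% of the gene, and by TPM 55.1% and 67.4%. TPM divides by length, so a short transcript needs few counts to take a large share.

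With TPM summed over the coding transcripts, an alternative added after seeing the data, Stat3 measured 12.1 and 14.8 TPM. On that sum Jak1 exceeded Stat3 by 0.61 on the log2 scale, where over all transcripts the difference was 0.11 ± 0.0042 (SD, n = 2). The lead of Stat3 over Stat5b moved from 0.96 to 0.49 and that over Stat5a from 1.23 to 0.63. Stat3 stayed above both.

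The coding forms of Stat3 differ at 2 splice choices that bear on what the protein can do. STAT3 beta, Stat3-202, skips the first 50 bases of an exon, which shifts the reading frame and replaces the transactivation domain of STAT3 alpha with a short other end. Stat3-201 ends another exon 3 bases earlier, which keeps the frame. Both stretches are shown with the skipped bases in capitals, the first from chr11:100889521-100889590 and the second from chr11:100893074-100893091, minus strand, from GENCODE M21 transcripts.
Stat3 alpha exon start: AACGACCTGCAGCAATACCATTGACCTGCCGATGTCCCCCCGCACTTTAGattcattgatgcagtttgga
Stat3 exon end: ccgaagccgacccagGTA
The beta form measured 1.62 TPM in replicate 1 and 0.64 in replicate 2, with bounds of 1.30 to 1.90 and 0.508 to 0.786 that did not overlap. It was 13.4% of the coding forms in replicate 1 and 4.32% in replicate 2. The form without the 3 bases was 51.5% and 41.5% of the coding forms. Stat3-202 also has the longest 3′ end of the 3, with a last exon of 3663 bases against 525 in Stat3-201 and 1951 in Stat3-203, and which reads, at the splice or at the end, set its share was not tested.

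Stat5a and Stat5b encode near-identical factors and sit beside each other on chromosome 11, 8626 bases apart, with Stat3 at the far side of Stat5a. Stat5b (ENSMUSG00000020919.7, minus strand, chr11:100780731-100850724) measured 9.33 TPM in replicate 1 (8.51 to 10.04) and 13.5 in replicate 2 (12.7 to 14.1). Stat5a (ENSMUSG00000004043.10, plus strand, chr11:100859351-100885169) measured 7.79 in replicate 1 (7.41 to 8.19) and 11.2 in replicate 2 (10.9 to 11.6). Both were higher in replicate 2 with intervals apart, and within each library Stat5b was above Stat5a with intervals apart, by 0.26 ± 0.01 on the log2 scale (SD, n = 2). Despite their likeness the counts were assigned with little uncertainty: the posterior SD of either count was 8.59 in replicate 1 and 5.83 in replicate 2, against counts of 2269 to 6808. None of the 10 genes had a posterior SD above 0.1 of its count, as had 0.392% of the detected protein-coding genes. The 3′ ends of Stat5a and Stat3 overlap by 72 bases on opposite strands.

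Stat5a was carried mainly by 1 coding transcript, Stat5a-202, at 89.2% and 89.1% of its TPM. Stat5b was not. Stat5b-201 starts at an upstream noncoding first exon and Stat5b-202 at another noncoding first exon 28196 bases further in, and in the annotation both lead into the same coding exons. The first exons lie behind stretches of very different make-up, shown as 107 bases each from the RefSeq promoter table (GRCm38.p6, minus strand), at chr11:100850725-100850831 and chr11:100822571-100822677. The upstream stretch ends where the GENCODE exon of Stat5b-201 begins, since the RefSeq start lies inside that exon, and the internal stretch ends at the RefSeq start, so the cuts are not at the same kind of start. Capitals mark each CpG, the dinucleotide that is dense in CpG island promoters.
Stat5b upstream promoter: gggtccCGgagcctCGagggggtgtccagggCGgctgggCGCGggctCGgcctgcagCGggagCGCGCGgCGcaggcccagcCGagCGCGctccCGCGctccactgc
Stat5b internal promoter: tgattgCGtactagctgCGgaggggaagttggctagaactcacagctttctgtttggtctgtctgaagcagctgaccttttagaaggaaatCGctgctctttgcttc
The upstream stretch holds 16 CpG at 82.2% GC and the internal one 3 CpG at 48.6% GC. In the table's full window, from 250 bases before to 50 after a start, they hold 50 and 7 CpG, where the median over all 32851 windows was 7.

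Stat5b-201, from the upstream start, measured 3.34 TPM in replicate 1 (2.81 to 3.81) and 7.3 in replicate 2 (6.83 to 7.71). Stat5b-202, from the internal start, measured 5.3 in replicate 1 (4.71 to 5.67) and 3.18 in replicate 2 (2.75 to 3.51). The internal start was the higher in replicate 1 and the upstream start in replicate 2, with intervals apart within each library. The upstream form was thus 38.7% of both coding forms in replicate 1 and 69.7% in replicate 2. The noncoding Stat5b-203, whose first exon lies at the upstream start too, held 7.45% of the gene's TPM in replicate 1 and 22.5% in replicate 2, on 32.1 and 190 counts. Neutrophil genes were higher in replicate 1 and erythroid genes in replicate 2, as given above, and the part of either in this difference was not tested.

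**Figure D2:**
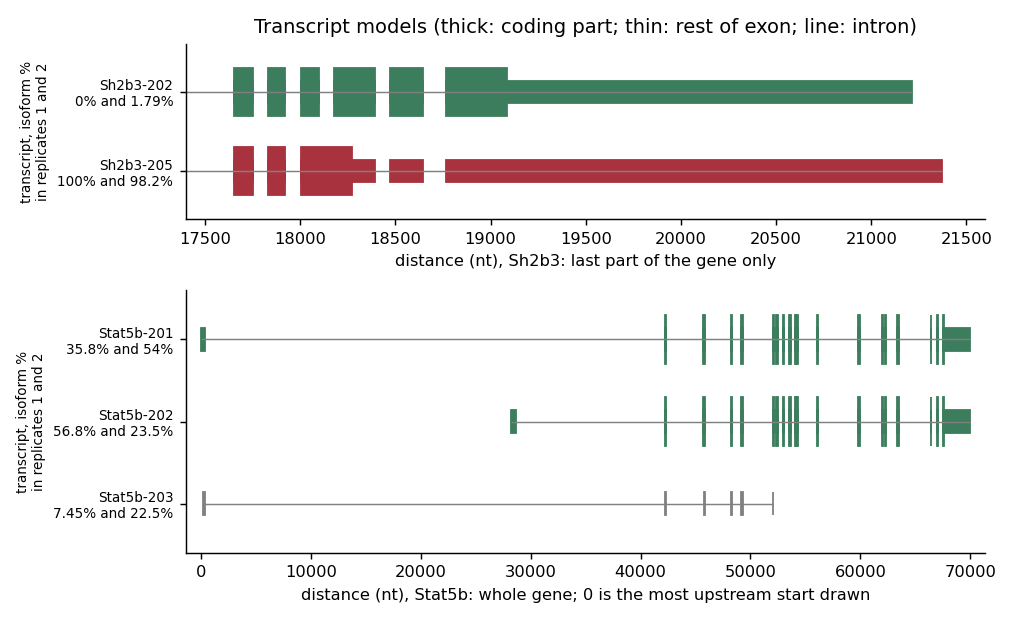
Exons of Sh2b3 (top, last part of the gene) and Stat5b (bottom, whole gene) by distance in bases from the most upstream start drawn; tall blocks are coding, low blocks are the rest of an exon, thin lines are introns, and the percents are isoform percent in replicates 1 and 2. Green marks coding transcripts, red the nonsense-mediated decay class and grey a processed transcript; in Sh2b3-205 a gap between exons is filled and the coding part ends early, and Stat5b-201 and Stat5b-202 differ in their first exon.

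Socs2 encodes a suppressor of growth hormone and STAT5 signalling and is itself a STAT5 target. It measured 0.24 TPM in replicate 1 and 0.78 in replicate 2, from 47 and 91 counts. Relative to the library totals the counts were close, at 1.68 and 1.88 CPM. The gap in TPM came with a change in the effective length assigned to the gene, 2281 bases in replicate 1 and 901 in replicate 2. In replicate 1 the coding Socs2-214, of 2153 bases, held 71.8% of the TPM, and in replicate 2 the noncoding Socs2-207, of 874 bases, held 78.8%. The deposited bounds were 0.348 to 0.786 in replicate 1, above the TPM itself, and 0.755 to 1.27 in replicate 2, and the posterior mean TPM that they surround was 0.56 and 1.0. For Socs2-214 in replicate 1 the bounds ran from 2.4e-05 to 0.174 TPM, on 29 counts. Its share by posterior mean was 16.5% there, so the leading transcript in replicate 1 was only loosely set. At this depth no difference in Socs2 between the libraries could be read. The gene (ENSMUSG00000020027.14) lies on the minus strand at chr10:95385362-95417180.

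Cish encodes CIS, a SOCS family protein that competes for STAT5 docking sites on receptors. It measured 0.57 TPM in replicate 1 (0.523 to 0.881) and 0.28 in replicate 2 (0.266 to 0.547), from 161 and 118 counts, or 5.77 and 2.43 CPM. Replicate 1 was 2.04-fold higher in TPM, the opposite direction to Socs2, and the intervals overlapped. They came apart, with replicate 1 higher, once the shift of the whole TPM scale between the libraries given further on was removed, and the ratio was 2.37-fold in CPM. Little of this TPM was assigned to the transcript with the full coding frame, and which reads set that split was not tested. Cish-201, with 771 coding bases, held 18.4% of the TPM in replicate 1 and 0 in replicate 2. Its bounds were 0.0553 to 0.169 TPM in replicate 1, and its upper bound in replicate 2 was 0.0305. Cish-204, which lacks an exon of 221 bases at chr9:107299924-107300144 and is annotated with 186 coding bases, held 46.2% and 62.9%. The noncoding Cish-202 held 35.4% and 37.1%. The gene (ENSMUSG00000032578.7) lies on the plus strand at chr9:107296026-107302784.

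STAT dimers bind a spaced palindrome, and Cish is a textbook STAT5 target through such sites near its start. The motif TTCNNNGAA, where N is any base and which reads the same on both strands, was searched in the RefSeq promoter windows (GRCm38.p6). For the 10 genes there were 11 windows covering 9 genes, Socs2 being the exception. Only the Cish window held a match, and it held 2 that do not overlap. Among all 32851 windows 8.30% held at least 1 match, 0.457% held 2 or more, and 1.15% held the stricter TTCCNGGAA, which the first Cish match also fits. The first match begins at the RefSeq start itself and the second 11 bases downstream. They are shown in capitals, from chr9:107296654-107296683 on the plus strand, beside the only match among the other SOCS genes with a window (3 of 6), in Socs3, at chr11:117969502-117969531 on the minus strand.
Cish site pair: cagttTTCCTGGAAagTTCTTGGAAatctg
Socs3 site: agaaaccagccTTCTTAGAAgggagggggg
Both Cish sites lie within exon sequence of Cish-201, and the annotated gene starts further upstream, at chr9:107296026. The Cish pair ends 32 bases before the first base of Cish-204, the leading Cish transcript by isoform percent. By counts the longer Cish-202 held more, 78.7 against 58.1 in replicate 1 and 60.5 against 57.5 in replicate 2. Socs3 measured 7.63 ± 2.09 TPM (SD, n = 2) and Cish 0.43 ± 0.21. Of 11 genes known as STAT5 targets 7 had a window, and Bcl6 was the only one with a match. Both of its windows held matches, and 1 of them held 3, of which 2 fit TTCCNGGAA, more than the Cish window. A match is a run of letters and was not tested for binding here.

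Sh2b3 measured 3.76 TPM in replicate 1 (3.54 to 3.95) and 3.8 in replicate 2 (3.63 to 3.97), from 1337 and 2003 counts. The intervals overlapped, and Sh2b3 lay 1.02 ± 0.06 above Tyk2 and 0.67 ± 0.27 below Jak3 on the log2 scale (SD, n = 2). The level was assigned almost wholly to 1 transcript, Sh2b3-205, at 100% of the TPM in replicate 1 and 98.2% in replicate 2. That transcript is not annotated as coding for full-length LNK but as a target of nonsense-mediated decay, the pathway that removes messages with an early stop. Of the 7079 detected protein-coding genes with 2 or more transcripts, 7017 had a leading transcript of a named class. A transcript of the decay class led in 2.41% of those. The coding Sh2b3-202 was listed at 0 in replicate 1, with an upper bound of 0.0976 TPM, and at 0.07 TPM in replicate 2, with an upper bound of 0.149.

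Sh2b3-205 keeps an intron of 80 bases, at chr5:121818680-121818759, and reads into a stop codon in the exon behind it, so that its coding part is 1110 bases where that of Sh2b3-202 is 1644. The stretch from the start of the kept intron to the stop is shown from chr5:121818584-121818759, minus strand, from GENCODE M21, with the intron and the stop codon in capitals.
Sh2b3 kept intron to stop: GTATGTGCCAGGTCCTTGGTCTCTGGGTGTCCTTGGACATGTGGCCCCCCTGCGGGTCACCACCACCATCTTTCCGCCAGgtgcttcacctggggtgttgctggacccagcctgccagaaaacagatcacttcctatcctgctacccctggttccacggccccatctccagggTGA
The kept bases begin with GT and end with AG, the usual ends of an intron. The 2 transcripts differ elsewhere too: Sh2b3-205 runs 160 bases further at the 3′ end, and Sh2b3-202 has an exon of 88 bases near its 5′ end that the other lacks. The gene (ENSMUSG00000042594.12, minus strand, chr5:121815488-121837646) shares its last 1006 bases, those 160 included, with Atxn2 on the opposite strand, which measured 7.45 and 9.89 TPM. The sources used here do not say whether the counting used strand, and which of these stretches held the reads that set the split was not tested. Summed over coding transcripts only, Sh2b3 fell below both feedback genes. Its log2 ratio to Cish went from 2.94 to -1.48 and that to Socs2 from 2.83 to -1.05. Each of these sums was below 1 TPM, and that of Cish was mostly Cish-204, with 186 coding bases. The bounds of Sh2b3-202 overlapped those of Socs2-214 in both libraries and those of Cish-204 in replicate 2.

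**Figure D3:**
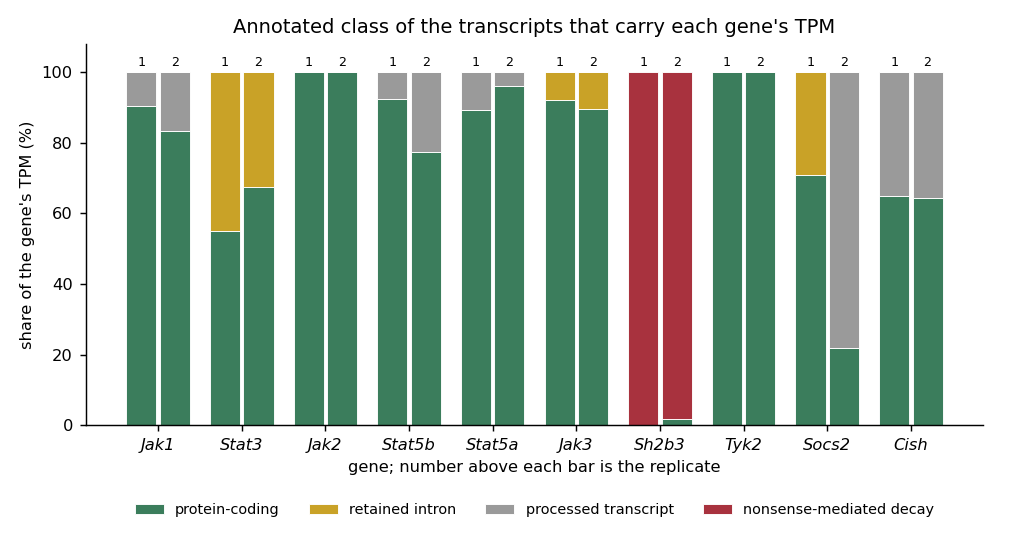
Share of each gene's TPM (percent, stacked to 100) by the annotated class of its transcripts, with 1 bar for each replicate as numbered above the bars. Sh2b3 is almost wholly in the nonsense-mediated decay class, Stat3 has 44.9% and 32.6% in retained introns, and Jak2 and Tyk2 are wholly coding.

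Of the 7 detected genes with 2 or more transcripts, 2 had another leading transcript in each library, Stat3 and Stat5b, where 25.0% of such genes did. Socs2 made it 3 of all 10, though its leading transcript in replicate 1 was only loosely set. By mean isoform percent the leading transcript was annotated as other than coding in 2 of the 7, Stat3 and Sh2b3. Among such genes with a named class 10.2% had that. For Stat3 this held in replicate 1 only: in replicate 2 the coding Stat3-203 led at 36.5%, and the 3 highest means were near level at 29.2%, 28.2% and 27.9%. The median share of TPM in coding transcripts was 88.1% over the 7079 genes, and Jak1, Jak2, Jak3, Stat5a and Stat5b lay between 85.0% and 100% on average, Stat3 at 61.2% and Sh2b3 at 0.921%.

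Ranked by mean TPM, the order was Jak1, Stat3, Jak2, Stat5b, Stat5a, Jak3, Sh2b3, Tyk2, Socs2 and Cish. Of the 45 possible pairs 42 kept their direction with intervals apart in both libraries. Of the 9 neighbours in the order 6 did so. The place of Stat3 rests on the division by length: in CPM Jak2 was above Stat3 in both libraries, at 170 against 149 and 174 against 153, the only one of the 42 to turn on that scale. Over coding transcripts Stat3 was above Jak2 by little, 12.1 against 11.4 TPM and 14.8 against 13.6. On those sums Sh2b3 fell below Tyk2, Socs2 and Cish in both libraries, though for Socs2 and Cish both sides were below 1 TPM. There Stat5a was above Stat5b in replicate 2, at 10.8 against 10.5. The exceptions were Jak1 with Stat3, Jak2 with Stat5b, whose intervals were apart in replicate 1 only, and Socs2 with Cish, whose direction differed between libraries. With 2 libraries of 1 group, each gene gives a single difference, so no other genes of like pattern are named.

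Between the replicates none of the 8 genes with a mean of at least 1 TPM differed by over 2-fold with intervals apart, where 12.3% of the genes at that level did. A smaller gap was common. Jak2, Jak3, Stat5a and Stat5b were higher in replicate 2 with intervals apart, 4 of the 8, where 55.2% of genes were. That background reflects a shift of the whole scale: the median detected protein-coding gene was 1.23-fold higher in replicate 2 in TPM (log2 0.29) but 1.03-fold in CPM (log2 0.04). Once replicate 1 was scaled by that ratio, Stat5a and Stat5b remained higher in replicate 2 with intervals apart, 2 of the 8, where 31.1% of genes were. Jak1, Tyk2, Stat3 and Sh2b3 were then higher in replicate 1, 4 of the 8, where 32.9% were. In CPM the log2 ratio was 0.37 for Stat5a and 0.07 for Stat5b, so the difference of Stat5b was seen per length only. The coding transcripts of Stat5b went from 8.64 TPM in replicate 1 to 10.5 in replicate 2, a rise close to the shift of the scale. Its noncoding Stat5b-203, of 727 bases, went from 0.7 to 3.04 TPM. For Jak1 the log2 ratio in CPM was -0.32, for Stat3 0.04, for Tyk2 -0.31 and for Sh2b3 -0.21. The part of the other cell types' genes in these differences was not tested.

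**Figure D4:**
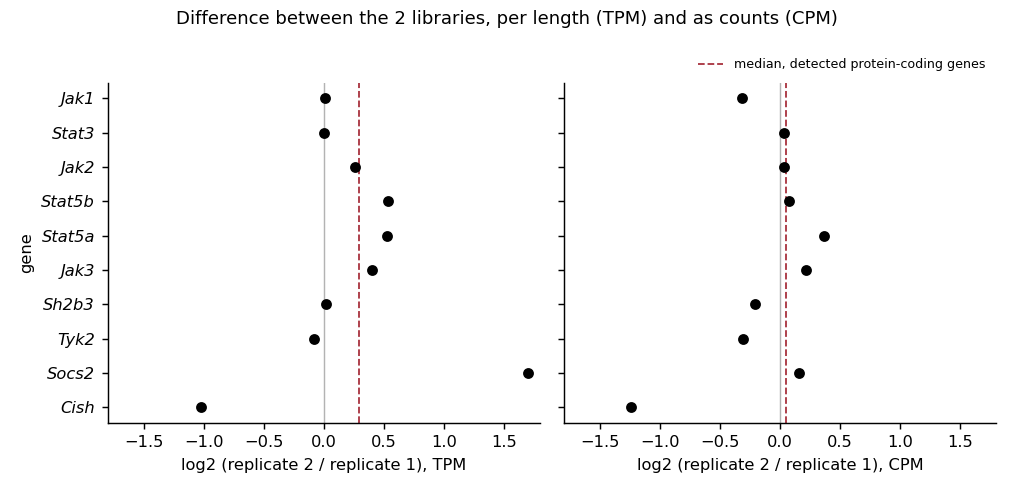
Log2 ratio of replicate 2 to replicate 1 for each gene in TPM (left) and in CPM (right); the dashed line is the median over 9443 detected protein-coding genes, 0.29 in TPM and 0.04 in CPM. The 8 detected genes lie within 0.54 of 0 on both scales, and Socs2 lies at 1.70 in TPM but 0.16 in CPM.

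The other genes of the pathway were read from lists chosen by role. Among the other STATs, Stat4, which acts downstream of IL-12, measured 16.7 ± 0.834 TPM (SD, n = 2), Stat6, the effector of IL-4, 9.21 ± 1.38, and Stat2 1.54 ± 0.269, all at 1 TPM or more in both libraries. Of the 6 other SOCS genes 5 did, Socs3 at 7.63, Socs6 at 7.12, Socs4 at 3.85, Socs5 at 3.0 and Socs7 at 2.43, while Socs1 had a mean of 0.985. All 6 had a higher TPM than Socs2 and Cish in both libraries, though the interval of Socs1 overlapped that of Socs2 in both and that of Cish in replicate 1. The SOCS box proteins work through a ubiquitin ligase, and its 4 subunits were present, Eloc at 23.1, Elob at 18.3, Cul5 at 13.4 and Rnf7 at 10.1 TPM. The 2 relatives of Sh2b3 were lower, Sh2b1 at 2.73 and Sh2b2 at 0.57.

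All 11 listed phosphatases, ubiquitin ligases and PIAS proteins reached 1 TPM. They were led by Ptpn6, which encodes SHP-1, at 91.3 ± 20.5, by Ptprc, which encodes CD45, at 67.0 ± 0.849, and by Ptpn2 at 23.0 ± 3.99. Pias4 at 1.48 and Cblb at 1.46 were the lowest. Ptpn6 lay above each of the 10 genes in both libraries. Of 35 receptor chains that use JAKs 22 were at 1 TPM or more in each library, and their median over the list was 1.8 TPM. Il11ra1 at 29.6, Ifnar2 at 25.8 and Il2rg, the partner of JAK3, at 25.2 led, and Prlr at 0.01 TPM and Osmr with 0 counts in both libraries came last. The erythropoietin receptor Epor had 0 counts in replicate 1 and 299 in replicate 2, and Il2ra had 0 and 40. Both were picked out after their values were seen. Epor is itself on the erythroid list summed above, so its direction is not separate from that of the list. Of 11 STAT5 target genes 9 reached 1 TPM, with Pim1 at 54.7 ± 19.3, Mcl1 at 54.7 ± 13.4 and Ccnd3 at 13.0 ± 4.83 the highest and Bcl6 at 1.12 and Pim2 at 0.945 the lowest, and many of these genes answer to other factors as well.

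**Figure D5:**
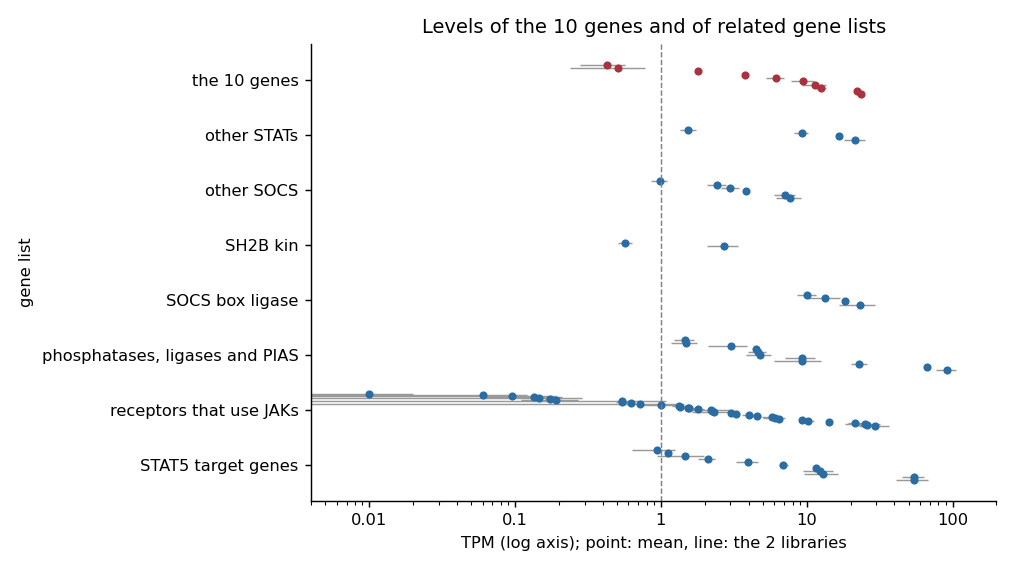
Mean TPM (points, log axis) of the 10 genes (red) and of each list of related genes (blue), with lines joining the 2 libraries and a dashed line at 1 TPM; a line that reaches the left edge has a library at 0, and Osmr, at 0 in both, is not drawn. The 4 subunits of the SOCS box ligase and the other STATs lie wholly above 1 TPM, as do the phosphatases, ligases and PIAS, and the receptors spread widest.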

How the data were processed

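The deposited tables hold, per the file headers, expected counts (estimates, often fractional), TPM, FPKM, lower and upper bounds of both (a score on the same scale) and, for transcripts, the isoform percent. The build was mm10 with GENCODE M4, per the deposited sample text files. The sources used here name no aligner or counter and say nothing of strand. Each gene table had 69691 features, and identifiers were matched without version to GENCODE M21 for names, classes and positions. Of 65 transcripts of the 10 genes 64 had the same length there, but 36 the same version.

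From these tables means, SD (n = 2), ratios on TPM + 0.1, CPM, comparisons of deposited intervals and motif matches were computed. There was no test, since there is 1 group. The 10 genes and the gene lists were chosen with earlier results of these data known. All 10 were named, as were lists of 6 or fewer genes, and otherwise the 3 highest and 2 lowest by mean; a few list genes are not reported here. Alternatives were posterior means, FPKM, other thresholds and pseudocounts, rescaling over protein-coding genes, TMM in edgeR 4.0.16, size factors of DESeq2 1.42.0 (both on rounded expected counts) and each library alone. The steps were run in Python 3.11.15 and R 4.3.3. Of them, the rule for genes apart between replicates was tested on simulated counts, and the others were not. Apart from genes changed on purpose, those counts differed by counting error only, and their intervals were computed from them. That test therefore does not cover the deposited bounds or differences between samples.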

Additional observations from a re-analysis of the deposited data

How the results depend on the processing

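The median of the 10 genes is a matter of scale: it was 22.3 as FPKM and 42.5 with TPM rescaled over protein-coding genes, against 7.81, and 6.55 to 9.08 with each library left out in turn. Counts of detected genes, ordered pairs, genes apart between replicates, leading transcripts, loosely assigned counts and motif matches stayed within 1.5 times under every alternative tried. Of 60 log2 ratios of 12 named pairs recomputed on both libraries 34 moved by less than the SD of the replicates, 24 by more without turning a called direction, and 2 turned. Those were Sh2b3 over Cish at -1.48 and Sh2b3 over Socs2 at -1.05, on protein-coding transcripts only, because the transcript that held the Sh2b3 level is left out by construction. Sh2b3, Cish and Socs2 were each below 1 TPM on that sum. Without division by length Stat3 over Stat5b fell to 0.14. Among the 42 ordered pairs 1 turned in CPM (Stat3 with Jak2) and 4 over coding transcripts, 3 of them in both libraries, a comparison chosen after seeing the data. No paired analysis was possible because there is 1 group. Depth limits Socs2 and Cish, with 47 to 161 counts.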
